A study of Homo sapiens with 15 samples.

Results

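The 10 genes described here encode cytosolic heat shock chaperones and their partners: the HSP70 proteins HSPA1A, HSPA1B and HSPA8, the HSP110 proteins HSPA4 and HSPH1, the HSP90 proteins HSP90AA1 and HSP90AB1, the small heat shock protein HSPB1, the J-protein DNAJB1 and the co-chaperone BAG3. They were chosen by gene symbol among the 58780 named genes of the count table, and all 10 were found and passed the filter on low counts. Levels are given as CPM, a gene's counts relative to its library's total after scaling with edgeR's TMM factors, and log2 fold changes carry the standard error of edgeR's quasi-likelihood test. A gene is said to have risen or fallen when its Benjamini-Hochberg adjusted p, taken over all 24659 genes tested, was below 0.05.

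RNA was sequenced from atrial cardiomyocytes derived from H7, an established human embryonic stem cell line of wild-type genotype that was steered towards the atrial fate with a retinoid. The 15 libraries fall into 5 groups of 3. Cells of 3 groups received an siRNA, either a scrambled control (scramble) or 1 of 2 siRNAs against ATRNL1 (siRNA-1 and siRNA-2), and cells of the other two received a lentivirus, either a control virus or one carrying a short isoform of ATRNL1. ATRNL1 (attractin like 1) encodes a membrane protein. The lentiviral cells were also selected with puromycin, so delivery by virus and selection separate the lentiviral groups from the siRNA groups. The labels give neither the promoter of the lentivirus nor the number of clones or differentiations. They do not state when the cells were treated and collected, or whether the libraries of a group were grown apart, so the p-values describe only how far these libraries spread, and that spread may be technical.

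HSP70 proteins bind exposed hydrophobic stretches of unfolded proteins and release them in a cycle driven by ATP. J-proteins such as DNAJB1 deliver the client and start ATP hydrolysis, while HSP110 proteins and BAG domain proteins exchange the nucleotide so that the client is released. HSP90 proteins finish the maturation of kinases, receptors and other clients, and small heat shock proteins hold unfolded proteins until HSP70 takes them. Heat shock factor 1 (HSF1) raises transcription of many of these genes under stress by binding heat shock elements, arrays of inverted GAA units. In striated muscle BAG3 works with HSPB8, HSP70 and the ubiquitin ligase STUB1 to clear damaged filamin at the Z disc.

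Heat shock elements are shown because HSF1 acts on many of these genes through them, and because the members that hold them did not all move alike. Promoter windows of RefSeq (GRCh38.p14; 250 bases before to 50 after a start site) were searched for 2 units, GAANNTTC or TTCNNGAA, and for 3 units, GAANNTTC followed by NNGAA or TTCNNGAA followed by NNTTC. Each 2-unit motif reads the same on both strands and the 3-unit motifs are each other's reverse complement, so both strands were searched, and a 3-unit match always holds both 2-unit motifs. Of all 35116 windows, 13.5% held a 2-unit match and 0.49% a 3-unit match. All 10 members were matched by symbol, with 15 windows, and 7 of the 10 had a window with a 2-unit match against 16.2% of 27305 genes. HSPA8, HSP90AA1 and HSP90AB1 had a 3-unit match, against 0.608% of those genes. The windows of HSPA4, HSPH1 and BAG3 held no match, which says only that these letters are not in them. A match is a description of the sequence, not a measured binding site. The stretches below are written 5′ to 3′ on the gene's strand, with the matches in capitals and 15 flanking bases on each side.
HSPA1A: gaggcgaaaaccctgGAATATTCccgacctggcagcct
HSPA1B: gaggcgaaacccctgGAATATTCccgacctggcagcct
HSPA8 upstream: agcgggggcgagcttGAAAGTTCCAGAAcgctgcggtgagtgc
HSPA8 near the start: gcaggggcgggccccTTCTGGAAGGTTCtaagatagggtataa
HSP90AA1: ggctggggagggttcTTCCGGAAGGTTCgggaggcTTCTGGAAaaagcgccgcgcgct
HSP90AB1: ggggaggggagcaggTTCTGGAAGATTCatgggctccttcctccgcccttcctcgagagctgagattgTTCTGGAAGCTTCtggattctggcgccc
HSPB1: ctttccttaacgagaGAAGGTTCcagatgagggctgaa
DNAJB1: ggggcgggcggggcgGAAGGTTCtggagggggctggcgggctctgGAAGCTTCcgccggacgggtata

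On GRCh38 the stretch of HSPA1A lies on the plus strand at chr6:31815422-31815459, that of HSPA1B on the plus strand at chr6:31827618-31827655 and that of HSP90AB1 on the plus strand at chr6:44247763-44247858. The stretches of HSPA8 lie on the minus strand at chr11:123062339-123062381 and chr11:123062164-123062206. The stretch of HSP90AA1 is on the minus strand at chr14:102087090-102087147, that of HSPB1 on the plus strand at chr7:76302476-76302513 and that of DNAJB1 on the minus strand at chr19:14518422-14518489. The windows of HSPA1A and HSPA1B were 92.6% identical over 299 bases. HSP90AA1, HSP90AB1 and DNAJB1 have several annotated starts, and their stretches come from the second, the third and the second window of the table. The third DNAJB1 window also holds a 2-unit match, over bases 1 to 8 after the start, which is not printed.

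**Figure D1:**
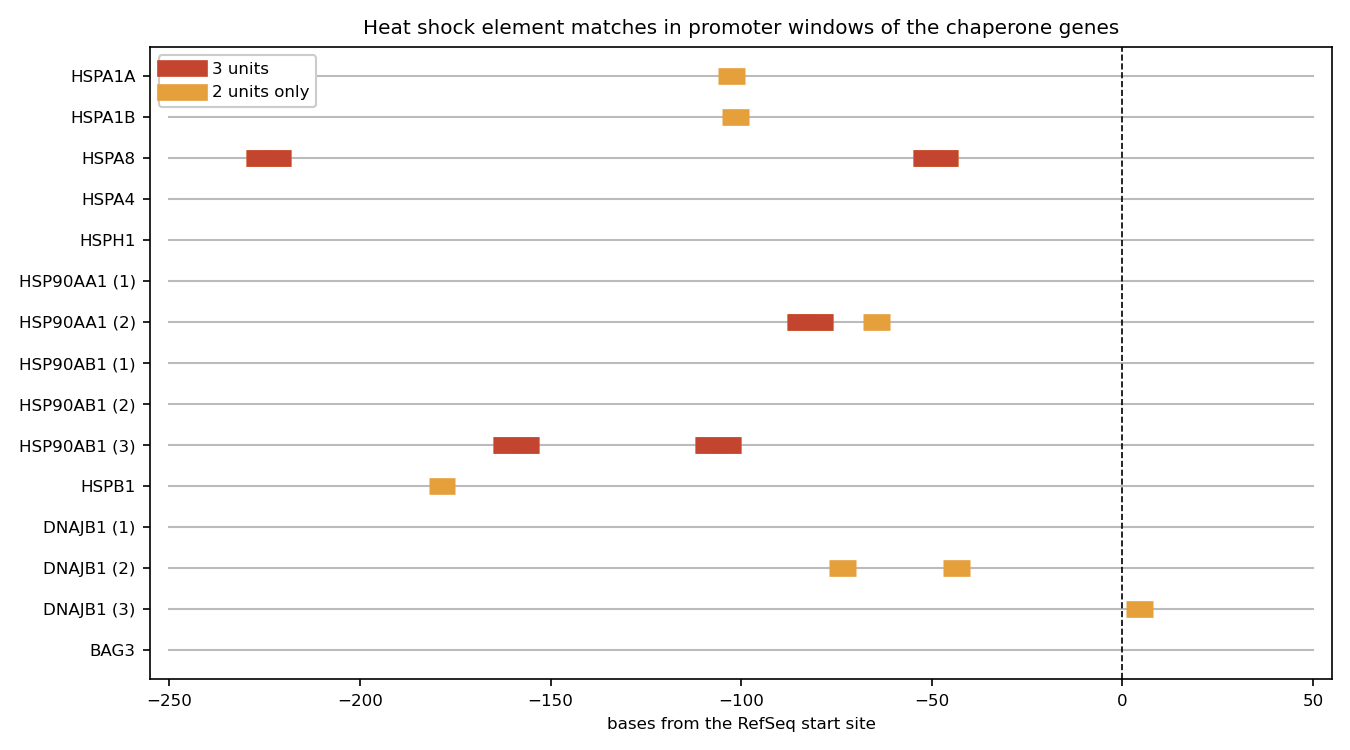
Heat shock element matches in the RefSeq promoter windows of the members; the x axis is the distance from the annotated start site in bases and each row is 1 of the 15 windows, numbered where a gene has several. HSPA8, HSP90AA1 and HSP90AB1 hold matches of 3 units, and the windows of HSPA4, HSPH1 and BAG3 hold none.

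Each library held between 37078568 and 108663135 counts, and the lowest value of any member in a library was 17.3 CPM, for HSPA1A. ATRNL1 stood at 13.8 to 16.9 CPM with scramble, 8.26 to 10.2 with siRNA-1 and 4.61 to 5.41 with siRNA-2, and at 27.1 to 29.2 with the control lentivirus and 636 to 927 with the ATRNL1 lentivirus, as the labels say. Of 12 cardiomyocyte markers, 11 averaged above 1 CPM in every group and their sum lay between 15785 and 23222 CPM. The other, the atrial gene SLN, averaged 0.12 to 0.21 CPM over the groups, and 6 pluripotency markers summed to 0.517 CPM or less. In every group 1 library lay between the other two across genes: scramble library 3, siRNA-1 library 2, siRNA-2 library 2, control lentivirus library 2 and ATRNL1 lentivirus library 3. Its squared distance from the best mixture of the other two was 2.69, 2.39, 7.19, 3.41 and 23.4 times counting noise in that order, where the other two differed from each other by 61.0, 41.5, 17.4, 25.6 and 89.5 times. In 4 groups the title of 1 sample joins the numbers of the other two samples; the labels do not say whether such a sample is a pool, and the columns name the group but not the sample. Calls of single genes and counts of the chaperone lists that were lost without these libraries, with 2 left in each group, are named beside the results.

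HSPA1A (ENSG00000204389, GRCh38 chromosome 6, 31815464 to 31817946, plus strand) and HSPA1B (ENSG00000204388, chromosome 6, 31827735 to 31830255, plus strand) are neighbouring copies that encode the inducible HSP70. Only 28.7% of the 50-base stretches of HSPA1A and 26.5% of those of HSPA1B are found in no other gene's annotated transcripts. HSPA1B also shares 36.5% of its exonic bases on the same strand with AL671762.1, which had 0 counts in every library. The split of reads between the copies is therefore uncertain and depends on how the authors counted shared reads. If shared reads were left out, the levels of both copies are too low beside those of the other members. HSPA8 (ENSG00000109971, chromosome 11, 123057489 to 123063230, minus strand) encodes the constitutive HSP70. HSP90AA1 (ENSG00000080824, chromosome 14, 102080738 to 102139699, minus strand) encodes the inducible cytosolic HSP90, and HSP90AB1 (ENSG00000096384, chromosome 6, 44246166 to 44253888, plus strand) the constitutive form. DNAJB1 (ENSG00000132002, chromosome 19, 14514770 to 14529770, minus strand) overlaps TECR on the opposite strand over 5.75% of its exonic bases. The use of strand in counting is not stated, and without it those reads cannot be assigned to either gene.

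Divided by exonic length, the HSP90 genes were the most abundant members in all 5 groups. With scramble, HSP90AB1 averaged 473 ± 67.4 CPM per kilobase (SD, n = 3) and HSP90AA1 430.0 ± 96.2. HSP90AB1 was the higher in each scramble library, at 404, 539 and 475 against 332, 524 and 434. Their order depends on the length used. All annotated exons together span 2980 bases in HSP90AB1 and 5248 in HSP90AA1, and their longest transcripts 2674 and 3510. Next came HSPA8 at 260.3 ± 29.9 CPM per kilobase and HSPB1 at 218 ± 9.38. HSPA4 stood at 65.2 ± 2.49 and BAG3 at 50.5 ± 5.29 CPM per kilobase, and HSPA1B, HSPH1, DNAJB1 and HSPA1A followed between 22.1 and 44.4. Together the 10 genes summed to 5334 to 7277 CPM in the scramble libraries, 6528 to 7129.97 with siRNA-1, 5068 to 5441 with siRNA-2, 4709 to 4923 with the control lentivirus and 3310.45 to 4105 with the ATRNL1 lentivirus. These are bulk samples, in which fewer cells of a type and less RNA per cell cannot be told apart.

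**Figure D2:**
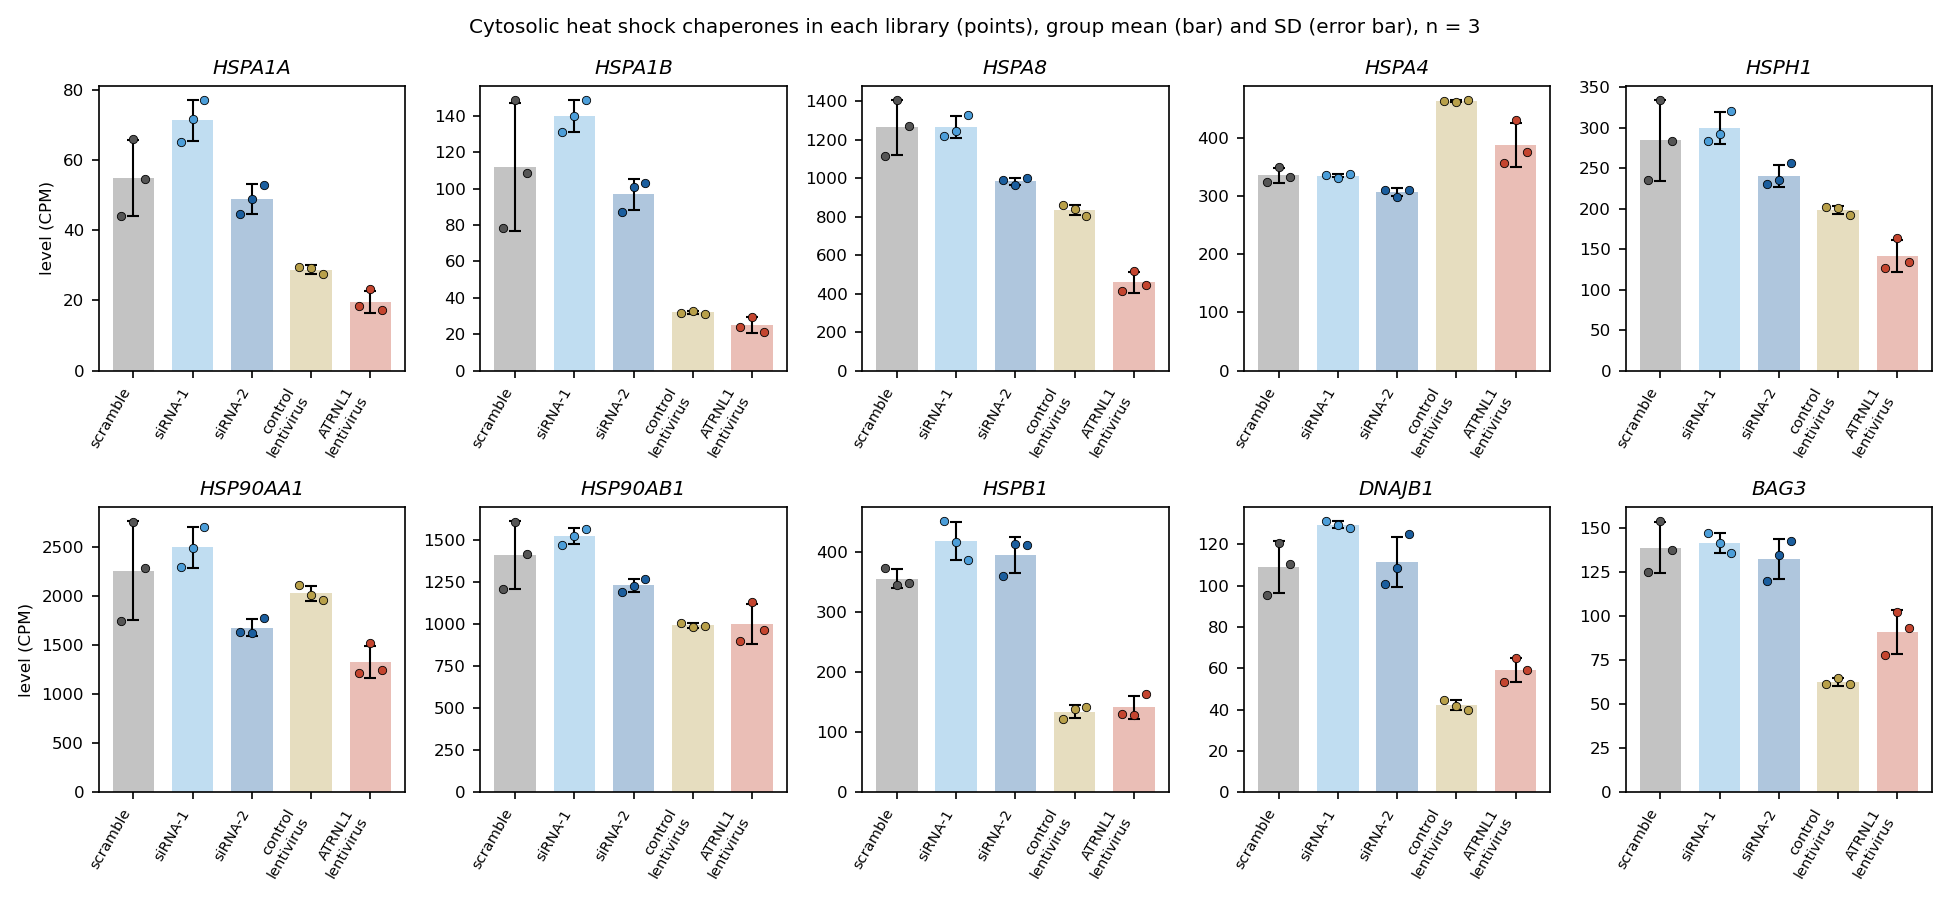
Level of each member in every library, as TMM-scaled CPM on linear axes from 0, by group; points are libraries, bars are group means and error bars the SD (n = 3). HSPA8 lies lowest in the 3 ATRNL1 lentivirus libraries, at 412 to 519.5 CPM. All members but HSPA4 and HSP90AA1 lie lower in every lentiviral library than in every library of the siRNA groups.

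The members moved in both directions with the ATRNL1 lentivirus. Against the control lentivirus, HSPA8, HSP90AA1, HSPA1A, HSPH1 and HSPA4 fell, the co-chaperones BAG3 and DNAJB1 rose, and HSPA1B, HSP90AB1 and HSPB1 did not pass the test. That is 5 of 10 lower and 2 of 10 higher, where 18% of all genes tested were called lower and 19.1% higher, 37.1% in all. The members' median log2 fold change was -0.30, and that of all genes was 0.00. In 8 of 10 members the libraries of the groups did not overlap, as in 42.9% of all genes.

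HSPA8 had 858, 840.2 and 803 CPM in the control lentivirus libraries and 412, 519.5 and 443 in the ATRNL1 lentivirus libraries. Every library with ATRNL1 lay below every control. The level fell by 45.0%, a log2 fold change of -0.86 ± 0.09 (SE; edgeR adjusted p = 1.03e-08). HSPA1A stood at 29.6, 29.4 and 27.4 CPM with the control virus and at 18.3, 23.2 and 17.3 with ATRNL1. It also fell without overlap, by 32.0% (log2 fold change -0.56 ± 0.11; edgeR adjusted p = 0.00033). HSPA1B gave 31.9, 32.7 and 31.4 CPM against 24.2, 29.7 and 21.2, a log2 fold change of -0.35 ± 0.14 (edgeR adjusted p = 0.0569). The groups did not overlap, but the difference missed the threshold. With the counts of both copies summed, the pair fell (log2 fold change -0.45; edgeR adjusted p = 0.00867). The sum does not depend on how counted reads were split, but it cannot recover shared reads that were left out.

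The HSP110 proteins, which act as exchange factors for HSP70, were lower as well. HSPH1 (ENSG00000120694, chromosome 13, 31134974 to 31162388, minus strand) gave 202, 201 and 192 CPM with the control virus and 126, 163 and 134 with ATRNL1. It fell by 28.8% (log2 fold change -0.49 ± 0.10; edgeR adjusted p = 0.000312). HSPA4 (ENSG00000170606, chromosome 5, 133051962 to 133106449, plus strand) gave 463, 462 and 466 CPM against 357, 431 and 376. Here the control libraries lay close together and above all 3 ATRNL1 libraries, and HSPA4 fell by 16.3% (log2 fold change -0.26 ± 0.07; edgeR adjusted p = 0.00429). Without the middle library of each group its value was -0.24 and the adjusted p 0.177 by the same edgeR test.

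The HSP90 forms differed. HSP90AA1 gave 2108, 2006 and 1961 CPM with the control virus and 1211, 1515 and 1248 with ATRNL1, a fall of 0.61 ± 0.11 on the log2 scale without overlap (edgeR adjusted p = 0.000103). HSP90AB1 gave 1004, 980.4 and 985 CPM against 899, 1128 and 965. Its groups overlapped, with a log2 fold change of 0.01 ± 0.09 (edgeR adjusted p = 0.941). The log2 ratio of HSP90AA1 to HSP90AB1 was 1.03 ± 0.04 (SD, n = 3) with the control virus and 0.41 ± 0.03 with ATRNL1. All 3 ATRNL1 libraries lay below all 3 controls; 3 against 3 cannot give an exact two-sided permutation p below 0.10, which was the value reached (0.136 after adjustment over 30 ratio comparisons).

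The small heat shock protein HSPB1 (ENSG00000106211, chromosome 7, 76302544 to 76304295, plus strand) gave 121, 139 and 141 CPM with the control virus and 130.5, 129 and 164 with ATRNL1. The groups overlapped, with a log2 fold change of 0.08 ± 0.09 (edgeR adjusted p = 0.539). BAG3 (ENSG00000151929, chromosome 10, 119651370 to 119677819, plus strand) gave 61.4, 65.0 and 61.3 CPM against 77.8, 102 and 92.9. All 3 libraries with ATRNL1 were above the controls, and BAG3 rose by 45.1% (log2 fold change 0.54 ± 0.09; edgeR adjusted p = 2.43e-05). DNAJB1 gave 44.6, 41.7 and 39.9 CPM against 53.2, 64.8 and 59.2. It rose by 40.3%, again without overlap (log2 fold change 0.49 ± 0.09; edgeR adjusted p = 7.67e-05). ATRNL1 lentivirus library 2, which had the most ATRNL1 of its group, was the highest of its group for 9 of the 10 members.

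Because BAG3 and DNAJB1 rose while HSPA8 fell, their ratios to HSPA8 moved more than any member. The log2 ratio of BAG3 to HSPA8 was -3.74 ± 0.06 (SD, n = 3) with the control virus and -2.34 ± 0.08 with ATRNL1, a difference of 1.40. That of DNAJB1 to HSPA8 was -4.31 ± 0.04 and -2.95 ± 0.05, a difference of 1.36. The log2 ratio of the summed inducible copies to HSPA8 was -3.78 ± 0.02 with the control virus and -3.37 ± 0.14 with ATRNL1. None of these groups overlapped, and each reached the smallest exact permutation p of 0.10. The ratios of BAG3 and of DNAJB1 were chosen after their values were seen.

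**Figure D3:**
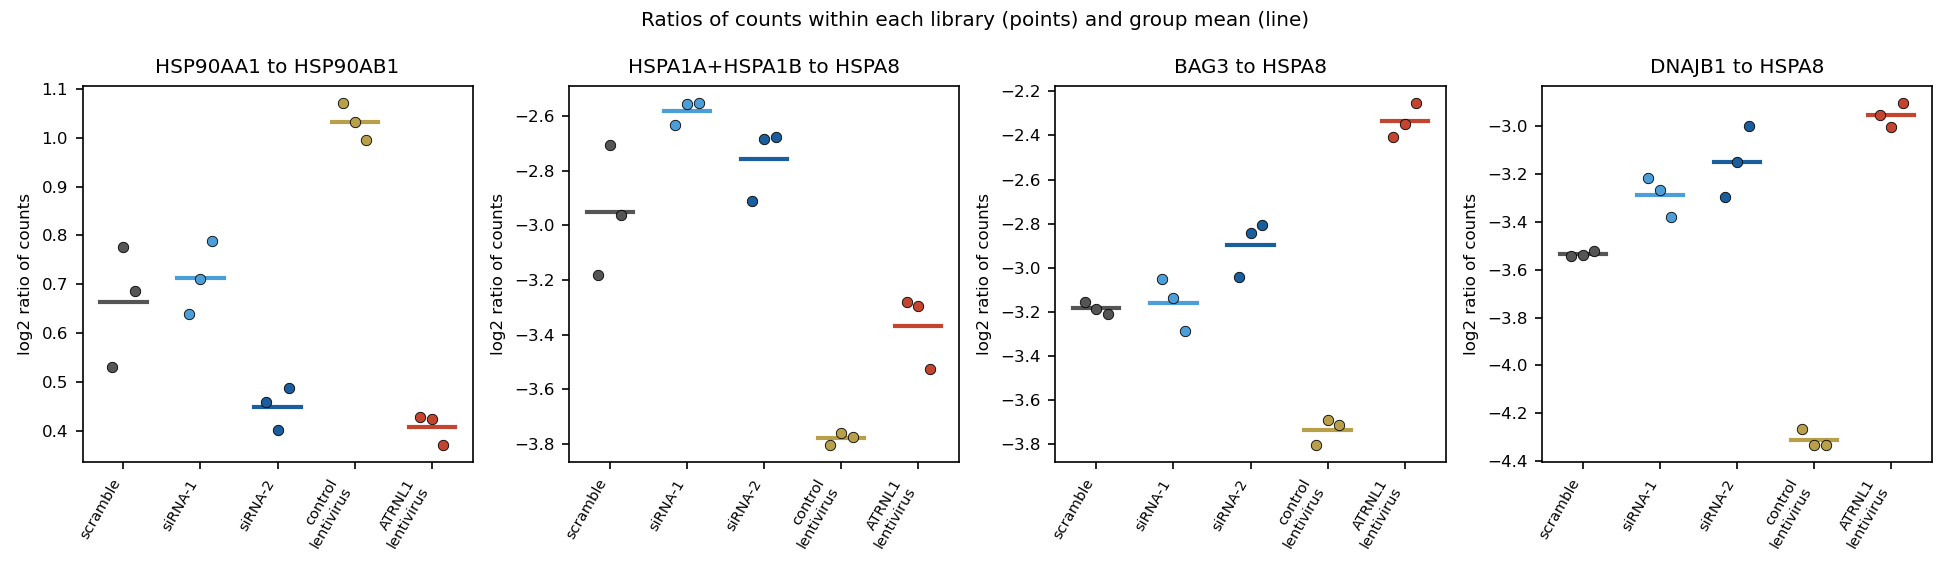
Log2 ratios of the members' counts (y axes, not starting at 0) by group; points are libraries and lines are group means. The ratio of HSP90AA1 to HSP90AB1 is highest with the control lentivirus, at a mean of 1.03, and falls to 0.41 with the ATRNL1 lentivirus.

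Fold changes followed GC content across genes. With ATRNL1, the median log2 fold change of genes of at least 5 CPM, cut into 10 equal bins, ran from -0.13 in the bin of lowest GC content to 0.31 in the bin of highest (Pearson's r = 0.31 across 11034 genes, which are not independent). With a GC offset for each library, an alternative chosen after seeing the data, HSPA8 (-0.87), HSP90AA1 (-0.59), HSPA1A (-0.81), HSPH1 (-0.42) and HSPA4 (-0.22) were still called lower. DNAJB1 (0.38) and BAG3 (0.34) were still called higher. HSPA1B, at a log2 fold change of -0.58 (edgeR adjusted p = 0.00595), and HSPB1, at -0.31 (edgeR adjusted p = 0.000173), were then called lower too.

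Summed levels of cell type markers also moved with the ATRNL1 virus. The cardiomyocyte sum was 17199 to 17424 CPM with the control virus and 15785 to 16786 with ATRNL1. Its markers went both ways. MYH6 averaged 4521 CPM with the control virus and 2925 with ATRNL1, while ACTN2 averaged 2568 and 3195, and RYR2 1399 and 2034. Smooth muscle and pericyte markers, 7 of 8 of them above 1 CPM in every group, summed to 951 to 973 and to 776 to 851 CPM, and fibroblast markers, 5 of 8, to 119 to 124 and to 130.2 to 164. Neural markers, 3 or 4 of 8 above 1 CPM, summed to 41.0 to 44.2 CPM with the control virus and 22.1 to 26.3 with ATRNL1. Endothelial markers, 1 of 8, gave 61.7 to 72.2 and 50.2 to 52.7 CPM, and epicardial markers, 2 of 6, gave 8.16 to 8.66 and 10.2 to 13.4. None of these sums overlapped between the groups, as in 42.9% of all single genes. The sums of the endoderm and liver markers (17.4 to 20.4 and 18.7 to 24.9 CPM) and of the pluripotency markers (0.327 to 0.395 and 0.173 to 0.348) did overlap. Some markers moved against the sum of their list. CNN1 (smooth muscle) averaged 235 CPM with the control virus and 292 with ATRNL1, ELAVL3 (neural) 0.21 and 1.01, and ALDH1A2 (epicardium) 3.19 and 1.69. With the control virus SOX1 (neural), VWF (endothelium) and MSLN (epicardium) were at 0 in all 3 libraries. The part of these cells in the results was not tested.

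**Figure D4:**
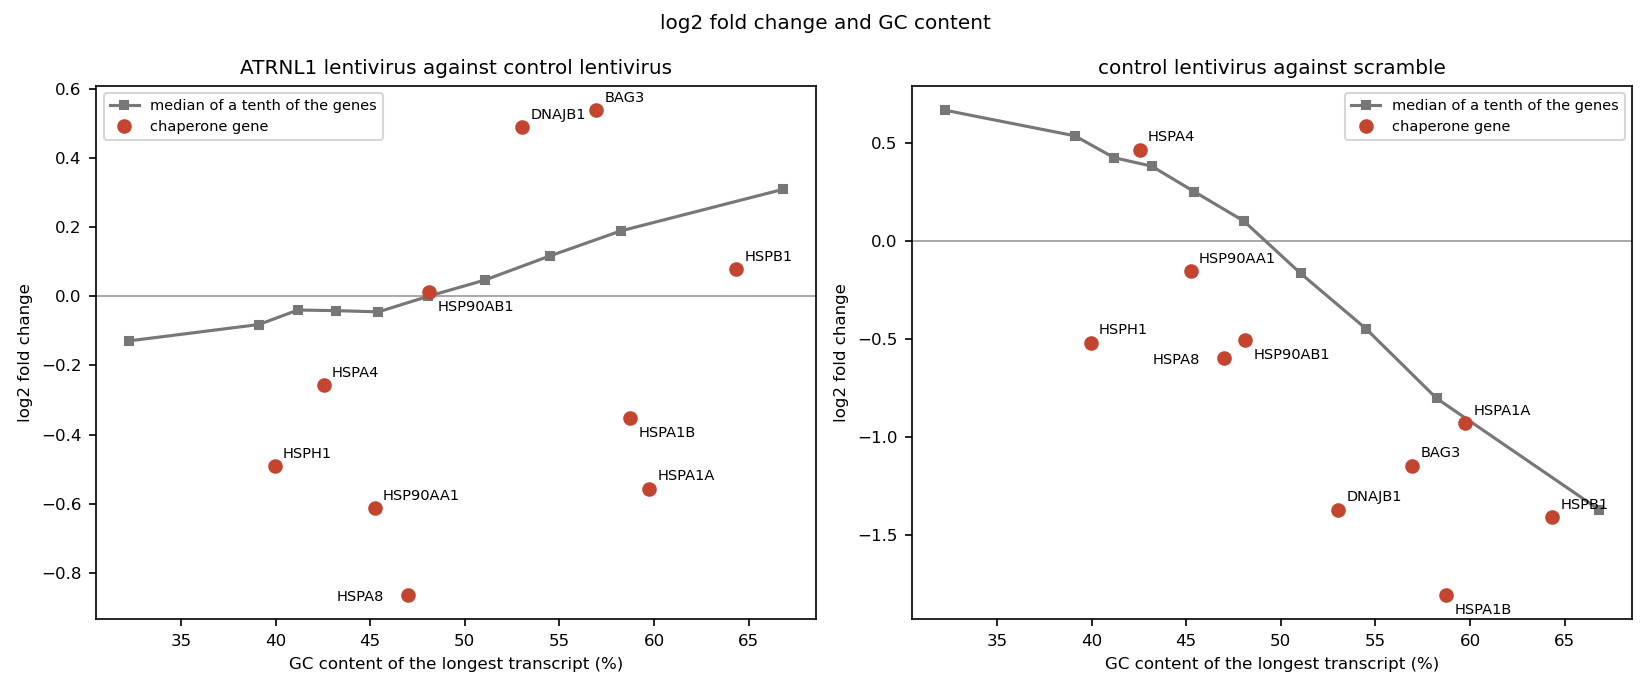
Log2 fold change against GC content in percent for ATRNL1 lentivirus over control lentivirus and for control lentivirus over scramble; lines are medians of 10 equal bins of 11034 genes and labelled points are the members. The medians rise with GC content in the first comparison, to 0.31, and fall in the other, to -1.37.

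With the siRNAs against ATRNL1 few members were called, in numbers near the shares of all genes called, and no member was called with both. With siRNA-1, HSPA1A rose, 1 of 10 members where 5.85% of all genes were called higher and 3.76% lower, 9.61% in all. With siRNA-2, HSPA8 and HSP90AA1 fell, 2 of 10 where 8.48% of all genes were called lower and 9.64% higher, 18.1% in all. HSPA8 and HSPA4 were the 2 members whose siRNA-2 and scramble libraries did not overlap, as in 36.7% of all genes. The median log2 fold change of the members was 0.13 with siRNA-1 and -0.18 with siRNA-2, and those of all genes were -0.01 and 0.00. Both comparisons share the scramble libraries, whose members varied: scramble library 1 was the lowest and library 2 the highest of the group for 9 of 10 members. Neural markers summed to 20.8 to 22.4 CPM with scramble, 35.7 to 47.5 with siRNA-1, where SOX1 was at 0, and 33.4 to 34.9 with siRNA-2. Epicardial markers summed to 4.07 to 5.60, 6.42 to 7.98 and 6.69 to 6.91 CPM in that order. Smooth muscle and pericyte markers summed to 330.2 to 499.6, 389 to 550.3 and 520.2 to 591 CPM. The part of these cells in the siRNA results was not tested.

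HSPA1A gave 44.2, 66.0 and 54.5 CPM with scramble and 65.3, 71.7 and 77.1 with siRNA-1, so 1 scramble library lay within the siRNA-1 range. The log2 fold change was 0.38 ± 0.11 (edgeR adjusted p = 0.0281), and this call was lost in 8 of 16 alternatives. Without the middle libraries the HSPA1A value was 0.37 and the call was lost. HSPA1B gave 78.4, 149 and 108.5 CPM with scramble and 131, 140 and 149 with siRNA-1 (log2 fold change 0.32 ± 0.14; edgeR adjusted p = 0.162). The summed copies gave 0.34 (edgeR adjusted p = 0.101). HSPB1 and DNAJB1 did not overlap between siRNA-1 and scramble, where 28.8% of all genes did not. HSPB1 gave 0.24 ± 0.09 (edgeR adjusted p = 0.0994) and DNAJB1 0.25 ± 0.09 (edgeR adjusted p = 0.0736), short of the threshold.

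HSPA8 gave 1113, 1403 and 1272 CPM with scramble, 1219, 1244 and 1327 with siRNA-1 and 988, 964 and 998 with siRNA-2. The siRNA-2 libraries lay below all others of the siRNA set, and the fall against scramble was 0.36 ± 0.09 on the log2 scale (edgeR adjusted p = 0.00329). HSP90AA1 gave 1741, 2749.8 and 2279.7 CPM with scramble, 2291 to 2702 with siRNA-1 and 1619 to 1775 with siRNA-2. It fell by 0.43 ± 0.11 on the log2 scale with siRNA-2 (edgeR adjusted p = 0.00822), although scramble library 1 lay inside the siRNA-2 range. Without scramble library 2 the HSP90AA1 value was -0.26 and the call was lost. Without the middle libraries neither gene was called, at -0.34 for HSPA8 and -0.40 for HSP90AA1.

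The direct comparison of the siRNAs gave more calls. Its log2 differences are taken between the siRNA groups alone, but its p-values rest on a spread estimated over all 15 libraries, scramble included. With siRNA-2, 6 of 10 members were lower than with siRNA-1 and none was called higher, where 5.6% of all genes were called lower and 4.53% higher, 10.1% in all. HSP90AA1 (log2 difference -0.57 ± 0.11; edgeR adjusted p = 0.00124), HSPA1A (-0.55 ± 0.11; edgeR adjusted p = 0.00145) and HSPA1B (-0.53 ± 0.14; edgeR adjusted p = 0.0131) differed most. HSPA8 (-0.36 ± 0.09), HSPH1 (-0.31 ± 0.10) and HSP90AB1 (-0.31 ± 0.09) passed as well. The call of HSPH1 was lost in 9 of 14 alternatives, that of HSP90AB1 in 7 of 14 and that of HSPA1B in 3 of 13. In 8 of 10 members the libraries of the siRNAs did not overlap, against 33.9% of all genes. HSPB1 (-0.08 ± 0.09) and BAG3 (-0.10 ± 0.09) were the members that did overlap. Without the middle libraries none of the 6 was called, at values of -0.55 for HSP90AA1, -0.55 for HSPA1A, -0.56 for HSPA1B, -0.36 for HSPA8, -0.31 for HSPH1 and -0.31 for HSP90AB1.

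Between the control groups, 8 of 10 members were lower with the control lentivirus than with scramble and HSPA4 was higher. Of all genes, 33.2% were called lower and 30.3% higher, 63.6% in all. The libraries of these groups did not overlap in 9 of 10 members, and in 68.5% of all genes. This comparison sets virus and puromycin selection against siRNA transfection, and any difference between those cultures in time or handling cannot be told apart from them. HSPA1B, HSPB1, DNAJB1 and BAG3 fell by 1.81, 1.41, 1.37 and 1.15 on the log2 scale, and HSPA1A, HSPA8, HSPH1 and HSP90AB1 by 0.51 to 0.93. HSPA4 gave 325, 350.0 and 333 CPM with scramble and 463, 462 and 466 with the control virus, and rose by 0.46 ± 0.07 on the log2 scale (edgeR adjusted p = 1.74e-06). HSP90AA1 did not pass (log2 fold change -0.16 ± 0.11; edgeR adjusted p = 0.233). The log2 ratio of HSPA1B to HSPA1A averaged 1.00 with scramble, 0.97 with siRNA-1 and 0.99 with siRNA-2, against 0.15 with the control virus and 0.35 with the ATRNL1 virus. That ratio was chosen after its values were seen, and the shared sequence of the copies limits it.

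GC content moved with this comparison more than with any other. The median log2 fold change fell from 0.67 in the bin of genes of lowest GC content to -1.37 in the bin of highest (Pearson's r = -0.67 across 11034 genes). HSPB1 (64.3% GC), HSPA1A (59.7%) and HSPA1B (58.7%) are the members richest in GC, and HSPH1 (39.95%) and HSPA4 (42.5%) the poorest. With the GC offset, HSPA1A (0.090; edgeR adjusted p = 0.549), HSPB1 (0.12; edgeR adjusted p = 0.0709) and HSPA4 (0.08; edgeR adjusted p = 0.126) were no longer called. HSPA1B (-0.90), HSPH1 (-1.04), DNAJB1 (-1.03), HSPA8 (-0.76), HSP90AB1 (-0.59), BAG3 (-0.44) and HSP90AA1 (-0.42) were called lower. Of the marker sums, smooth muscle and pericyte (951 to 973 CPM with the control virus), neural (41.0 to 44.2) and epicardial (8.16 to 8.66) lay above the scramble libraries, and fibroblast (119 to 124 against 161 to 227) lay below. Their part in these results was not tested.

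**Figure D5:**
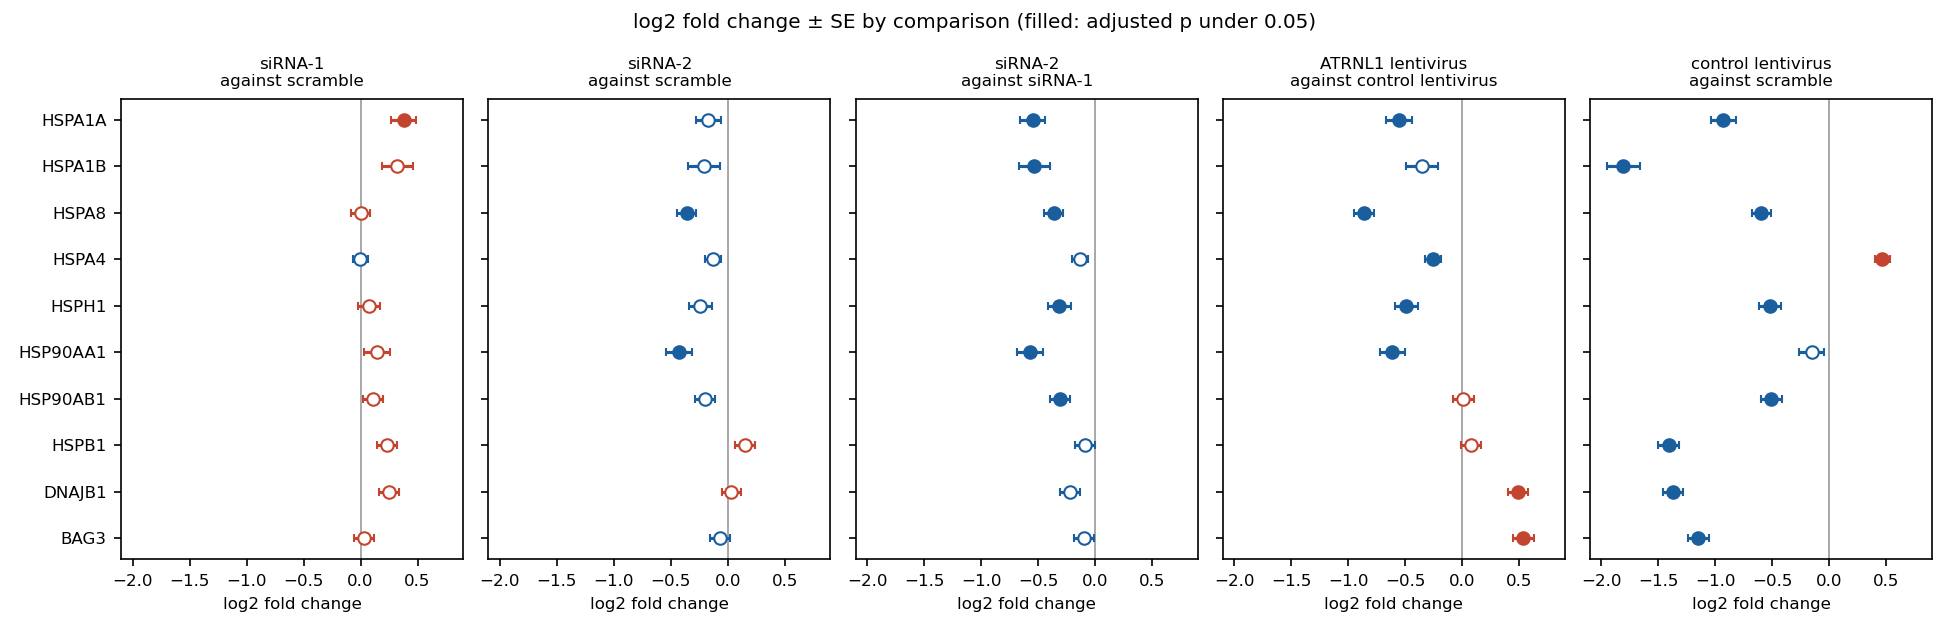
Log2 fold change of each member in 5 comparisons, with bars of 1 standard error; red points are above 0, blue points below, and filled points had an adjusted p under 0.05. HSPA8 lies at -0.86 and BAG3 at 0.54 for ATRNL1 lentivirus over control lentivirus.

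The effect of the ATRNL1 lentivirus was also set against the mean effect of both siRNAs in 1 model. HSPA8 (difference -0.68 ± 0.11; edgeR adjusted p = 3.3e-05), HSPA1A (-0.66 ± 0.15; edgeR adjusted p = 0.00111), HSP90AA1 (-0.47 ± 0.15; edgeR adjusted p = 0.0173) and HSPH1 (-0.41 ± 0.13; edgeR adjusted p = 0.0196) were lower with the virus effect. BAG3 (0.56 ± 0.12; edgeR adjusted p = 0.000491) and DNAJB1 (0.35 ± 0.12; edgeR adjusted p = 0.0218) were higher. Of all genes, 15.5% were called lower and 16.5% higher, 32% in all. HSPA1B, HSPA4, HSP90AB1 and HSPB1 did not pass. Without the middle libraries HSPA8 (-0.67) and BAG3 (0.58) were called, and HSPA1A (-0.56), HSP90AA1 (-0.46), HSPH1 (-0.37) and DNAJB1 (0.32) were not. With the GC offset 7 members were called lower and 1 higher: HSPA1B (-0.65), HSPB1 (-0.49) and HSPA4 (-0.16) joined the 4 lower ones, BAG3 was at 0.36, and DNAJB1, at 0.23, was no longer called. The arms of this difference also differ in delivery, so it does not compare more with less ATRNL1 alone.

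Among other genes of the system, HSF1, the main heat shock transcription factor, rose with the ATRNL1 virus. It gave 14.0, 14.3 and 15.1 CPM with the control virus and 30.4, 31.7 and 37.0 with ATRNL1 (log2 fold change 1.19; edgeR adjusted p = 7.39e-12), and 69.0, 74.9 and 70.5 with scramble. Of 9 heat shock factors and regulators, 5 rose and 1 fell with ATRNL1, where 19.1% of all genes were called higher and 18% lower. SIRT1, a deacetylase that acts on HSF1, rose by 0.61 on the log2 scale. With the GC offset HSF1 was at 0.80 and SIRT1 at 0.67, and 4 of the 9 were called higher and 2 lower. Without the middle libraries 4 were called higher and 0 lower. With the control virus against scramble HSF1 fell by 2.31 on the log2 scale, and its value was -0.73 with the GC offset. With siRNA-2 it fell by 0.25, a call lost in 8 of 17 alternatives. Without the middle libraries the HSF1 value was -0.30 and this call was lost. HSPA6, a strictly inducible HSP70, stood at 2.26, 6.15 and 4.06 CPM with scramble (104, 372 and 456 counts), 2.39 to 2.84 with siRNA-1 and 1.89 to 4.63 with siRNA-2. It had 2, 1 and 1 counts with the control virus, and 0.74, 0.51 and 0.67 CPM (70, 34 and 35 counts) with the ATRNL1 virus.

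In the lists nearest to the members, calls went both ways with the ATRNL1 virus, where 19.1% of all genes were called higher and 18% lower. Several of the counts lie near those shares. Of 7 other HSP70 and HSP110 genes, 2 rose and 2 fell, with HSPA2, the testis-enriched HSP70, falling by 1.52 on the log2 scale. Of 11 other J-proteins 4 rose and 3 fell. DNAJA1, a J-protein partner of HSPA8, fell by 0.76 on the log2 scale (edgeR adjusted p = 4.3e-08), opposite to DNAJB1. Among 6 other small heat shock proteins 3 rose and 1 fell, with HSPB6, a muscle small heat shock protein, at 1.12 and HSPB8, the partner of BAG3, at 0.38. Of 7 BAG and exchange factor genes 3 rose and 1 fell, with BAG1 at 0.48, BAG6 at 0.40 and BAG2 at -0.40. Of 6 partners of BAG3 in autophagy 3 rose and 1 fell: the cargo receptor SQSTM1 gave 0.99, FLNC, the muscle filamin, 0.51, and SYNPO2, the Z-disc protein that binds BAG3, -0.97. Without the middle libraries fewer genes of each list were called. Higher and lower calls were then 1 and 1 (HSP70 and HSP110), 2 and 2 (J-proteins) and 2 and 1 (small heat shock proteins). They were 2 and 0 (BAG and exchange factors) and 2 and 1 (partners of BAG3). The calls of BAG2 (-0.31) and FLNC (0.41) were among those lost. With the GC offset BAG6 was at 0.13 and FLNC at 0.18, both still called.

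Of 13 HSP90 co-chaperones, 1 rose and 3 fell with the ATRNL1 virus, a share near the 37.1% of all genes called. The immunophilin FKBP4 gave 0.51, and UNC45B, the myosin chaperone of muscle, -0.54. Without the middle libraries 1 of the 13 was called higher and 1 lower. Of 14 subunits of the chaperonin TRiC and of prefoldin, which fold actin and tubulin, 9 fell and none was called higher, with CCT2 at -0.70 and CCT5 at -0.34, and the list's median was -0.24. Of the 14, 2 were called lower without the middle libraries. With siRNA-2 against scramble, 7 of these 14 and 6 of the 13 HSP90 co-chaperones fell and none was called higher, where 8.48% of all genes were called lower. CCT2 and CCT4 fell by 0.37 on the log2 scale, as did STIP1, which bridges HSP70 and HSP90. Without the middle libraries no gene of either list was called with siRNA-2, with CCT2 at -0.35, CCT4 at -0.34 and STIP1 at -0.36. With siRNA-1, 2 of the 13 co-chaperones rose, where 5.85% of all genes did, and no TRiC or prefoldin gene was called. These were FKBP5 (0.24), whose call was lost in 12 of 17 alternatives, and UNC45B (0.23), lost in 11 of 17. Neither was called without the middle libraries.

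Chaperones of other compartments are given beside the members. Of 18 chaperones of the endoplasmic reticulum, 17 fell with siRNA-1 and 17 with siRNA-2, while 1 and 2 of the 10 cytosolic members were called in those comparisons. Both comparisons share the scramble libraries, which were uneven for these genes. With the control lentivirus against scramble, 17 of the 18 were lower too, where 33.2% of all genes were called lower. The list's median log2 fold change was -1.00 there, -0.99 with siRNA-1 and -0.96 with siRNA-2. The part of the scramble libraries in these falls was not tested. HSPA5 averaged 1560 ± 644 CPM (SD, n = 3) with scramble, 583 ± 58.7 with siRNA-1 and 553 ± 20.3 with siRNA-2. With 1 library left out, 15 to 17 and 14 to 18 of the 18 were called lower. Of all genes, 3.76% were called lower with siRNA-1 and 8.48% with siRNA-2, and without the middle libraries 13 and 11 of the 18 were called lower. With the ATRNL1 virus 7 of the 18 rose and none was called lower, with HERPUD1 at 1.54 and HSPA5, the HSP70 of that compartment, at 0.76, where 19.1% of all genes were called higher. Of the 18, 3 were called higher without the middle libraries. Of 9 mitochondrial chaperones 4 rose with the ATRNL1 virus, among them LONP1 at 0.83 (0.48 with the GC offset), and 5 fell with siRNA-2, with HSPD1 at -0.37 and HSPE1 at -0.43. Without the middle libraries 3 of the 9 were called higher with the ATRNL1 virus. With siRNA-2, 1 of the 9, HSPE1 at -0.49, was then called lower, and HSPD1 stood at -0.33. No test of the difference between these lists and the members was made.

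Over the 15 libraries, HSPA1B had the widest range of group means among the members, 2.50 on the log2 scale. Likeness was measured as the root mean square difference of centred log2 CPM over the libraries, among 11026 genes of at least 5 CPM. The genes most like HSPA1B were HSPBP1 (0.31), DCXR (0.32) and NUBP2 (0.32), where the median of all genes was 1.11. HSPBP1 encodes an HSP70 binding protein. For HSPA1A they were ARAP3 (0.21), SRM (0.23) and CTF1 (0.26), with a median of 0.78. For the sum of both copies they were ARAP3 (0.25), ATP13A2 (0.29) and DGCR6L (0.29), with a median of 0.97. Libraries, depth and GC content are shared by all these points.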

How the data were processed

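RNA of 15 libraries in 5 groups was sequenced after ribosomal depletion, per the labels' protocols, although another label calls the RNA polyadenylated. The authors deposited 1 table of raw counts per gene; STAR 2.7.9a, DESeq2 1.30.1 and GRCh38 are named in the submitters' processing notes. The counter and its strand setting are not given in the sources used. Of 59429 rows, 58780 carry GENCODE 29 identifiers; 649 rows with bare numbers (0.00157 to 0.00437% of counts) were left out. Totals ran from 37078568 to 108663135 counts per library.

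Counts were fitted in R 4.3.3 with edgeR 4.0.16 (TMM factors, filterByExpr by group, quasi-likelihood test) as 5 group means over all 15 libraries, with no covariate and Benjamini-Hochberg adjustment over 24659 genes at 0.05. The common biological coefficient of variation was 8.24%. The standard error is the size of the log2 fold change divided by the square root of F. Ratios were compared with exact two-sided permutation tests. DESeq2 1.42.0, other scalings and filters, left-out libraries, single scramble controls and summed HSPA1 copies were alternatives. Leaving out the middle libraries and a GC offset (lowess, span 0.3) were added after seeing the data. The fit was tested on simulated data. The members and gene lists were chosen with earlier results of these data known. From each pathway list and comparison the text names up to 3 called genes with the largest change and at least 1 CPM; for likeness it names the 3 closest genes of the summed HSPA1 copies and of the 2 members of widest range.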

Additional observations from a re-analysis of the deposited data

Results flagged for a closer look

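The siRNAs against ATRNL1 differed from each other in 6 members by a direct edgeR test of siRNA-2 minus siRNA-1. All 6 were lower with siRNA-2, where 5.6% of all genes were called lower and 10.1% in all. With 1 library left out, 3 to 5 members were called. The log2 differences were -0.57 for HSP90AA1, -0.55 for HSPA1A, -0.53 for HSPA1B, -0.36 for HSPA8, -0.31 for HSPH1 and -0.31 for HSP90AB1. In each of the 6 all 3 siRNA-2 libraries lay below all 3 siRNA-1 libraries. The libraries of these groups did not overlap, in either direction, in 33.9% of all genes. ATRNL1 itself stood at 8.26 to 10.2 CPM with siRNA-1 and at 4.61 to 5.41 with siRNA-2. Whether the members' differences follow the level of ATRNL1 was not tested. Without the middle library of each group, with 2 libraries left in each, none of the 6 was called, and their values lay between -0.56 and -0.31.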

How the results depend on the processing

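No paired analysis was possible because the columns are not tied to labelled samples and the labels do not say that a number is shared between groups. Of 1028 values of members under alternatives, 928 kept their direction and side of the threshold or changed sign without being called (44), 55 lost a call and 42 gained one. The other 3 changed sign and were called either before or after, not both. With ATRNL1 lentivirus over control, HSPA8 (-0.96 to -0.78), HSP90AA1, HSPA1A, HSPH1, BAG3 (0.34 to 0.65) and DNAJB1 kept their calls in every alternative run, and leaving out 1 library gave 7 to 8 members called (7 with all libraries). For siRNA-1 (1 member called) the count was 4 with no low count filter, 4 with scramble library 1 as the sole control, 0 with library 2 or library 3 alone, 0 with the HSPA1 copies summed, 0 without the middle libraries, 3 with the GC offset and 0 to 3 with 1 library left out. For siRNA-2 (2) it was 0 and 6 with scramble library 1 and 2 as the sole control, 0 without the middle libraries and 1 to 6 with 1 library left out. For siRNA-2 over siRNA-1 (6) it was 0 without the middle libraries and 3 to 5 with 1 left out. For the control lentivirus over scramble (9) it was 9 to 10 with 1 left out. For the difference of effects (6) it was 3 with scramble library 2 alone, 2 without the middle libraries and 4 to 7 with 1 left out. The log2 ratio of HSPA1A alone to HSPA8 differed by -0.32 between the control groups, against -0.83 with both copies. Under the GC offset HSPB1, not called before, changed sign to -0.31 with ATRNL1 and was called. For the control lentivirus over scramble HSPA1A (0.090), HSPB1 (0.12) and CLPP (0.081) changed sign and lost their calls. PFDN6 (0.31) and HSPB6 (0.71) changed sign and were called higher. The cause was not tested. Of 2310 pathway gene values 2146 were the same, 161 lost a call and 3 that had been called changed sign. Over all genes, calls ranged from 433 to 3293 for siRNA-1 (2370), 1381 to 5486 for siRNA-2 (4470), 459 to 4914 between the siRNAs (2499), 5164 to 9496 for the ATRNL1 virus (9149) and 4055 to 8506 for the difference of effects (7879). With library size as the only scaling the median log2 fold change of all genes for the control lentivirus over scramble was -0.26 (-0.06 with TMM), and 5790 genes were called higher and 10045 lower (7480 and 8195 with TMM). The same scaling gave 3491 higher and 1486 lower for siRNA-2 against scramble (2378 and 2092) and 2055 and 1045 for siRNA-2 against siRNA-1 (1117 and 1382).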
